A study of Mus musculus with 3 samples.

Results

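The genes described here are 10 regulators of the G1 phase of the cell cycle, taken by symbol from the 17121 genes of the deposited table, and all 10 were found in it. They are the CDK inhibitor genes Cdkn1a, Cdkn1b, Cdkn2a, Cdkn2c and Cdkn2d, the D cyclin genes Ccnd2 and Ccnd3, the kinase genes Cdk4 and Cdk6, and Trp53inp1, a stress gene induced by p53. RNA was sequenced from wild-type mouse CD8+ T cells, the cytotoxic lymphocytes, isolated from spleen and lymph node and cultured for 3 days. Cells of the group young TCR, from 6-week-old animals, were stimulated with anti-CD3 and anti-CD28 (1 µg/ml). These antibodies engage the T cell receptor (TCR) complex and the costimulatory receptor CD28. Cells of young TRM had the same age and antibodies plus the cytokines IL-15 (20 ng/ml) and TGF-beta (5 ng/ml), a mixture named for tissue-resident memory T cells (TRM). Cells of aged TRM had that full mixture and came from 18-month-old animals. All 3 samples were thus activated and grown in vitro, and aged cells given the antibodies alone were not analysed here. Each group was 1 sample with 2 numbered columns in the table. Since no label explains these numbers, both columns were read as runs of a single sample, though they could also be separate cultures or animals. On that reading each group had 1 sample, and no p-value was computed.

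Entry into the cell cycle is driven by D cyclins, which bind CDK4 or CDK6 and start the phosphorylation of the retinoblastoma protein, so that E2F factors are released and the genes of DNA replication are transcribed. Inhibitors of the INK4 family (encoded by Cdkn2a, Cdkn2c and Cdkn2d) bind CDK4 and CDK6 themselves, whereas inhibitors of the CIP/KIP family (p21, encoded by Cdkn1a, and p27, encoded by Cdkn1b) bind cyclin-CDK complexes and act on CDK2 as well. In T cells, receptor stimulation raises D cyclins, p27 holds resting cells out of the cycle, TGF-beta is known for slowing division, and Cdkn2a and Cdkn1a are widely used as marks of senescence.

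The samples young TCR, young TRM and aged TRM held 39915766, 36021989 and 40385590 reads in genes, and a column held between 16084904 and 20245290 reads. Levels are given as CPM, read counts scaled to a common library size by trimmed means (TMM). All 12 T cell and CD8 markers were above 0 in every sample, with 111 CPM as the lowest value, and Cd8a had 747, 1821 and 1633 CPM in young TCR, young TRM and aged TRM. A gene was tested if it had at least 1 CPM in 1 of the samples compared. The words rose and fell are kept for tested genes that met both parts of a threshold: a difference of 2-fold or more in CPM + 1, and a ratio of reads whose 95% interval (Clopper-Pearson) did not include 1. These intervals cover counting error only, and printed folds hold no pseudocount. In such bulk samples fewer cells that carry a transcript and less of it in each cell cannot be told apart.

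The promoters of 3 genes are shown because Cdkn1a and Cdk6 changed most between samples in their families and Cdk4 did not pass the threshold. Each line gives 250 bases before an annotated transcript start, 5′ to 3′ on the gene's strand, from RefSeq for GRCm38.p6. Capitals in the first Cdkn1a line mark a pair of CATG cores at the spacing of a p53 binding site (searched as CATGNNNNNNCATG), and in the second line the GC box GGGCGG, to which SP1 and its relatives bind. In the Cdk4 and Cdk6 lines capitals mark the E-box CACGTG, to which MYC and its partners bind.
Cdkn1a, upstream start, chr17:29090729-29090978, plus strand: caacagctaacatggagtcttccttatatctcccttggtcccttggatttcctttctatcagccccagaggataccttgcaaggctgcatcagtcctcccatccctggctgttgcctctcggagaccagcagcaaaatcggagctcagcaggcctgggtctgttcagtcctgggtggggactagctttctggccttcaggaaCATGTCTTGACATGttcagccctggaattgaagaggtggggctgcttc
Cdkn1a, downstream start, chr17:29093519-29093768, plus strand: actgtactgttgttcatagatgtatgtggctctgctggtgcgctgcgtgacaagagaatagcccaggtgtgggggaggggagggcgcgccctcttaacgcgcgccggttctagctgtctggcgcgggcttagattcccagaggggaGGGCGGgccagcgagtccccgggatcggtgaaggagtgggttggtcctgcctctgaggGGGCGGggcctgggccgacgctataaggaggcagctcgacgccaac
Cdk4, chr10:127063285-127063534, plus strand: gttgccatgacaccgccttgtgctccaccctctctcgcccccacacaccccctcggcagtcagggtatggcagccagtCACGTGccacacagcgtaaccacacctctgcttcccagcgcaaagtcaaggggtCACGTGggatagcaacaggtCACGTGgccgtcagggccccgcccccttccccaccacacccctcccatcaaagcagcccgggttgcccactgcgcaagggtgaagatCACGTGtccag
Cdk6, chr5:3343643-3343892, plus strand: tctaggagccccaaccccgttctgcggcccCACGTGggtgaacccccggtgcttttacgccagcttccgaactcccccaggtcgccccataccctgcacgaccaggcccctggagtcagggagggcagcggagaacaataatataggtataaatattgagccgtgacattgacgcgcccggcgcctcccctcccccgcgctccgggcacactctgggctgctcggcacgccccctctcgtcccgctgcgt

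Both strands were searched, and the marked motifs did not overlap each other. The p53 core pair stood 48 bases before the upstream Cdkn1a start and occurred in 0.490% of 32851 promoters of this length, and in 1 of the 12 promoters that the table holds for these genes. It was searched for after that sequence had been read. The GC box was present in 8 of the 12 promoters and in 32.7% of all, and lay 104 and 46 bases before the downstream Cdkn1a start. The E-box occurred 4 times before Cdk4, at 172, 118, 98 and 11 bases, and once before the Cdk6 start searched, at 220 bases. It was present in 6.02% of all promoters. That Cdk6 start, at 3343893, lies inside the span of the gene (3341004 to 3531008), and no Cdk6 promoter further upstream was searched. The SMAD repeat GTCTAGAC (0.167% of all promoters) and the STAT5 site TTCNNNGAA (7.02%) had no match in the 12. The table holds no promoter of Ccnd2 or Trp53inp1. A match is a string of letters in a window and was not measured as a bound site.

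The first comparison, young TRM against young TCR, differed by the added cytokines at 1 age. Cdk6 and Trp53inp1 rose and Cdkn1a fell, so that 3 of the 9 tested genes passed the threshold, against 7.78% of all 11588 genes tested. In single directions the shares of all tested genes were 4.18% higher and 3.6% lower. Cdkn2a, with under 1 CPM in each sample, was the 1 gene not tested. The median log2 ratio of the 9 tested genes was 0.51, beside 0.02 for all tested genes. The genes were chosen with earlier results of these data known, so neither the count nor the median tests them against that background.

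Cdkn1a (gene ID 12575, chromosome 17, positions 29090979 to 29100722 of GRCm38.p6) had 150 and 164 CPM in the columns of young TCR, 48.9 and 45.7 CPM in those of young TRM, and 177 and 206 CPM in those of aged TRM. The young TRM sample was thus the low one, and none of its columns reached those of the other samples. Between the young samples Cdkn1a fell from 157 to 47.2 CPM (3.33-fold lower, interval 3.16 to 3.52), and by column the difference was 3.07-fold to 3.59-fold. Some 2.43% of tested genes had a log2 ratio larger in size.

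Cdk6, which encodes the kinase that shares the D cyclins with CDK4, lies on chromosome 5, positions 3341004 to 3531008. It had 218 and 228 CPM in young TCR, 547 and 552 CPM in young TRM, and 421 and 412 CPM in aged TRM. It rose 2.46-fold (2.40 to 2.52) from young TCR to young TRM. Cdk4 (chromosome 10, positions 127063535 to 127067288) had 284 and 268 CPM in young TCR, 234 and 224 CPM in young TRM, and 226 and 233 CPM in aged TRM. The kinase genes thus had log2 ratios of opposite sign, 1.30 for Cdk6 and -0.27 for Cdk4, the latter short of the threshold.

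Trp53inp1, whose product promotes p53 activity and autophagy under stress, lies on chromosome 4, positions 11156441 to 11174379. It had 209 and 229 CPM in young TCR, 619 and 632 CPM in young TRM, and 524 and 530 CPM in aged TRM. Its rise of 2.86-fold (2.79 to 2.93) between the young samples was opposite in direction to the fall of Cdkn1a, although p53 is known to induce both genes.

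**Figure D1:**
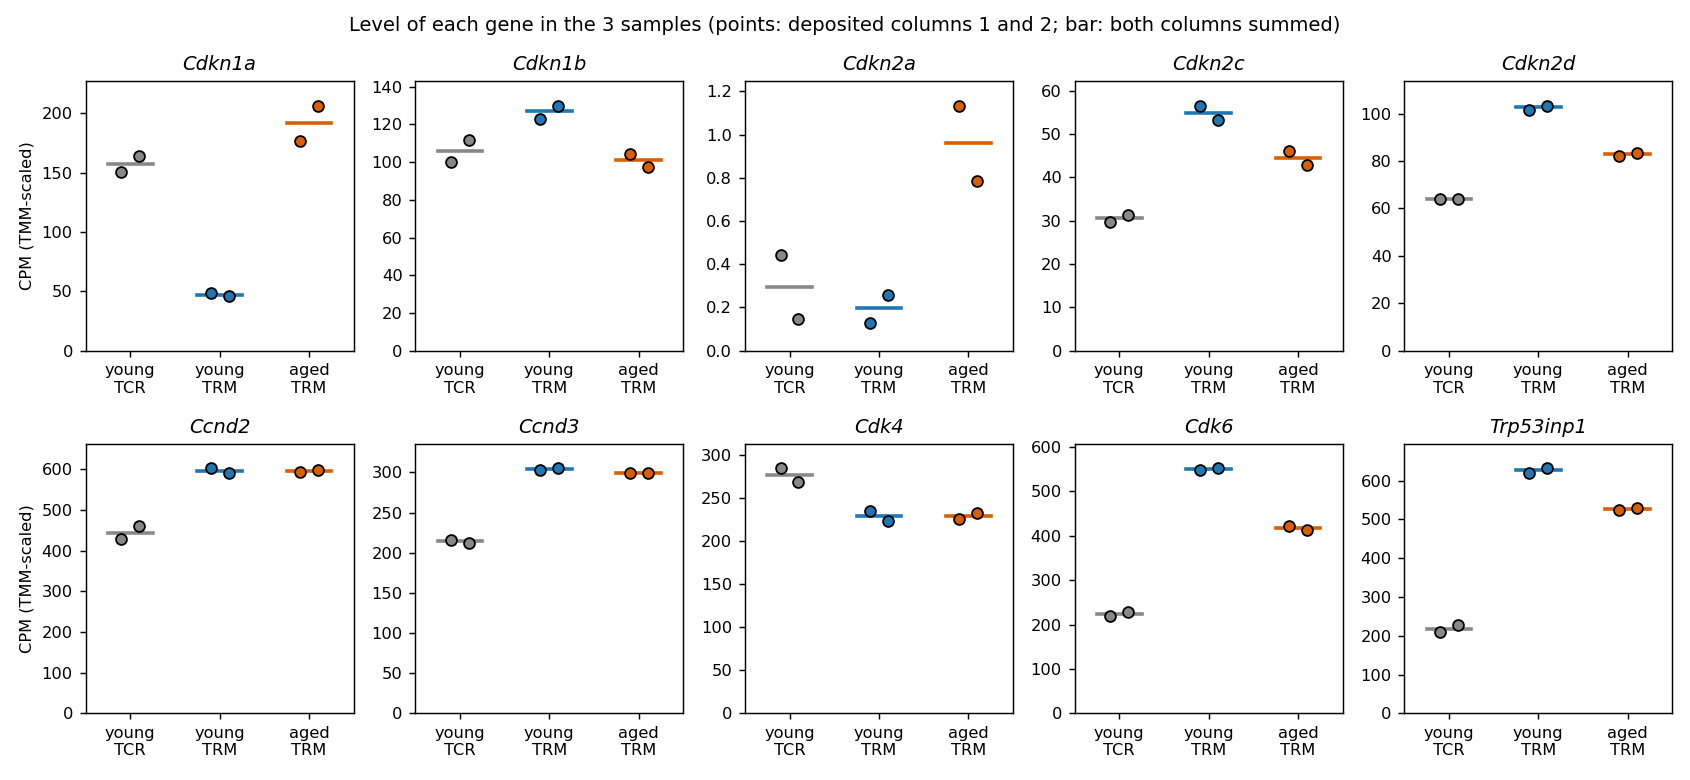
CPM of each of the 10 genes in young TCR, young TRM and aged TRM, with points for the 2 deposited columns of a sample and a horizontal bar for their sum, on linear axes that start at 0. Cdkn1a is low in young TRM alone (47.2 CPM against 157 and 192), while Cdk6 and Trp53inp1 are highest there, and Cdkn2a stays below 1.2 CPM.

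Among the other inhibitors no gene passed the threshold, and 3 of the 4 had higher values in young TRM. Cdkn2c, which encodes p18, had 29.7 and 31.4 CPM in young TCR and 56.6 and 53.3 CPM in young TRM, a ratio of 1.79 (1.67 to 1.93). Cdkn2d, which encodes p19 of the INK4 family, had 64.1 and 63.8 CPM in young TCR and 102 and 103 CPM in young TRM, a ratio of 1.60 (1.53 to 1.69). These INK4 genes thus lay below 2-fold but apart from young TCR in every column. Cdkn1b, the gene of p27, had 100 and 112 CPM in young TCR and 123 and 130 CPM in young TRM, a ratio of 1.20 (1.15 to 1.25). Cdkn2a, which encodes both p16 and the p53 activator p19ARF from separate promoters, had 12 reads in young TCR and 7 in young TRM, and the interval of its ratio, 0.224 to 1.85, included 1. Gene-level counts do not separate its transcripts.

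The D cyclin genes had like ratios in the first comparison. Ccnd2 had 427 and 460 CPM in young TCR and 602 and 591 CPM in young TRM, a ratio of 1.34 (1.32 to 1.37). Ccnd3, the D cyclin gene with the highest level per length here, had 216 and 212 CPM in young TCR and 303 and 305 CPM in young TRM, a ratio of 1.42 (1.38 to 1.46). For all 9 tested genes the columns of the 2 young samples did not overlap, but the same held for 78.9% of all tested genes. Columns of 1 sample lay close together, and apart from Cdkn2a the largest fold between them was 1.17, for Cdkn1a in aged TRM.

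The second comparison, aged TRM against young TRM, differed by the age of the mice under the same culture condition, with different animals and so separate cultures. Cdkn1a rose and was the only 1 of the 9 tested genes past the threshold, where 3.4% of all 11575 tested genes were called, 2.25% higher and 1.15% lower. From the values given above it went from 47.2 CPM to 192 CPM, 4.06-fold higher (3.85 to 4.28), and by column 3.61-fold to 4.51-fold. Of all tested genes, 0.484% had a log2 ratio larger in size than the 2.0 of Cdkn1a. The other 8 tested genes had log2 ratios between -0.40 and 0.00, and the median of the 9 was -0.25, beside -0.01 for all tested genes.

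Cdk6 had the lowest of these ratios, 0.757 (0.742 to 0.773), with both aged columns below both young TRM columns. Cdkn1b, at 105 and 97.4 CPM in aged TRM, had a ratio of 0.795 (0.762 to 0.830). Cdkn2c, at 46.1 and 42.7 CPM, and Cdkn2d, at 82.3 and 83.3 CPM, had ratios of 0.811 and 0.807. Trp53inp1 had a ratio of 0.842 (0.826 to 0.858). The ratios of these 5 genes thus lay between 0.757 and 0.842, short of 2-fold, and the columns of the samples did not overlap.

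The D cyclin and Cdk4 transcripts were close to equal in the TRM samples of both ages. Ccnd2 had 592 and 599 CPM in aged TRM, a ratio of 0.999 (0.981 to 1.02) to young TRM. Ccnd3 had 299 and 299 CPM (ratio 0.983, 0.958 to 1.01) and Cdk4 had a ratio of 1.00 (0.974 to 1.03). The sign of these 3 log2 ratios changed with the scaling, the unit or the column used, and their sizes stayed at 0.05 or less. Of the 9 tested genes 7 had columns that did not overlap between the ages, as did 74% of all tested genes.

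Cdkn2a had 39 reads in aged TRM, 1.13 and 0.785 CPM by column, beside 0.127 and 0.256 CPM in young TRM and 0.443 and 0.148 CPM in young TCR. The aged columns lay above all 4 young ones. The ratio to young TRM was 4.83, with a wide counting interval of 2.14 to 12.8, but at 0.959 CPM the gene fell short of the level set for testing and is reported as values. Few reads support this gene in any sample. Markers of B and plasma cells summed to 55.9, 18.9 and 27.8 CPM in young TCR, young TRM and aged TRM, and were thus highest in young TCR. Whether such cells held the Cdkn2a reads was not tested.

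**Figure D2:**
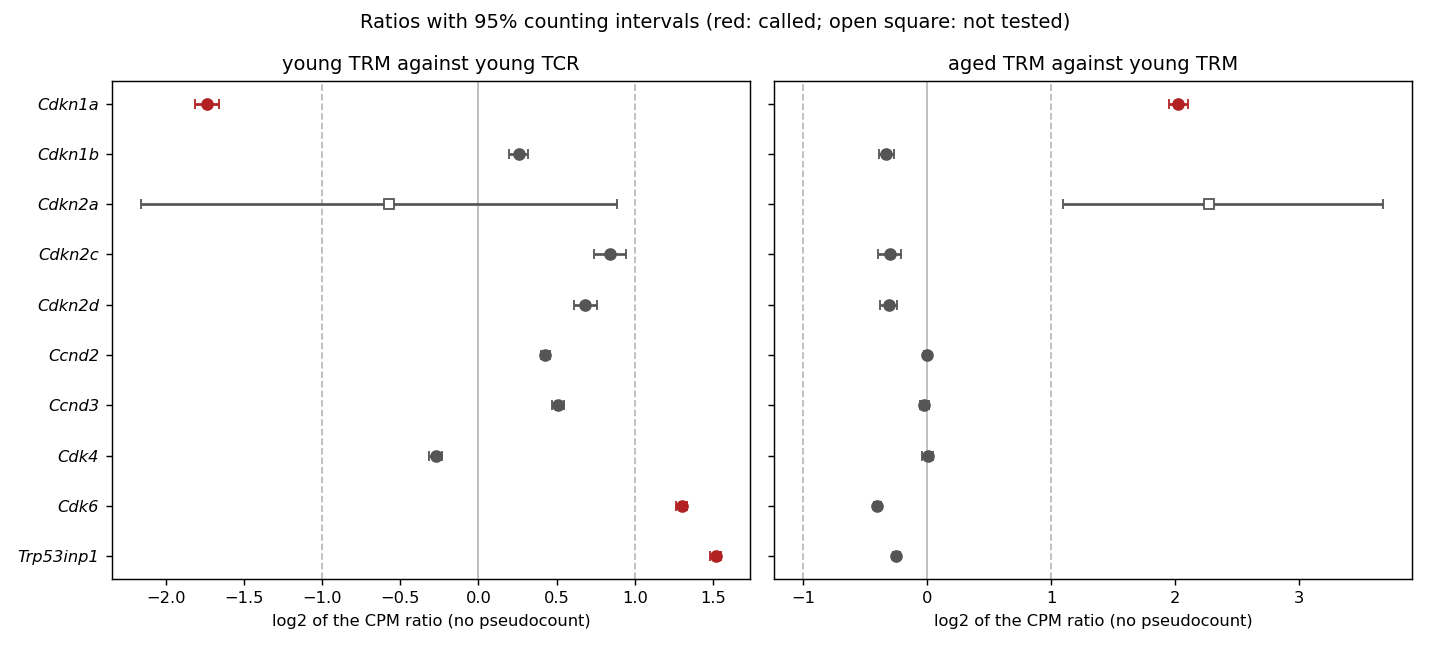
Log2 of the CPM ratio of each gene, without pseudocount, for young TRM over young TCR on the left and aged TRM over young TRM on the right. Horizontal bars are 95% counting intervals, dashed lines mark 2-fold, red points passed the threshold and open squares were not tested. Cdkn1a lies below -1 on the left and near 2 on the right, and the interval of Cdkn2a is the widest in both.

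Set beside young TCR, from which aged TRM differed in both age and cytokines, Cdkn1a in aged TRM was 1.22-fold higher (1.18 to 1.26) and Cdkn1b was at 0.952 (0.912 to 0.994) of its level. Cdk6 and Trp53inp1 were at 1.86 (1.82 to 1.91) and 2.41 (2.35 to 2.47) times their young TCR level, and Ccnd2 and Ccnd3 at 1.34 and 1.40 times. Cdk4 was at 0.830 (0.808 to 0.853) of its young TCR level. The level of Cdkn1a in aged TRM was therefore nearer to that of young TCR than to that of young TRM. Those of the D cyclins and Cdk4 were nearer to young TRM, although Cdk4 was also not far from young TCR. These values carry no call.

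Levels of different genes were compared with the authors' TPM, which divides by transcript length. In young TCR the order from the highest was Cdk4 at 392 TPM, Ccnd3 at 230, Cdkn1a at 164, Ccnd2 at 145, Cdkn2d at 102, Cdkn1b at 87.4, Trp53inp1 at 79.3, Cdk6 at 37.7, Cdkn2c at 33.5 and Cdkn2a at 0.71 TPM. In that sample Cdkn1b (82.0 to 92.9 TPM by column) and Trp53inp1 (74.9 to 83.7 TPM) overlapped, and the other neighbours did not. In young TRM Cdkn1a was 9th, with 48.9 TPM, and at the top Ccnd3, with 327 TPM in both columns, lay inside the range of Cdk4 (313 to 332 TPM). In aged TRM Cdk4 (331 to 336 TPM) and Ccnd3 (330 to 336 TPM) overlapped as well. Cdkn1a was 3rd there, with 204 TPM, and its columns, 190 and 219 TPM, enclosed those of Ccnd2 (200 and 200 TPM) and Trp53inp1 (196 and 196 TPM). Cdkn2a was last in each sample, with 0.46 TPM in young TRM and 2.22 TPM in aged TRM.

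Summed by family, the share of Cdk6 in the TPM of Cdk4 and Cdk6 was 8.78% in young TCR, 22.2% in young TRM and 17.8% in aged TRM. Their sum was 429, 415 and 406 TPM, so the balance moved more than the total. Ccnd3 held 61.2%, 62.6% and 62.0% of the D cyclin TPM, a steady share while the D cyclin sum was 375, 522 and 537 TPM. Within the CIP/KIP inhibitors Cdkn1a held 65.0%, 32.1% and 70.5%, and Cdkn1b was the more abundant inhibitor of this family in young TRM alone. The INK4 sum was 137, 223 and 188 TPM, of which Cdkn2d held 74.6%, 72.7% and 72.1%.

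The summed TPM of the 5 inhibitors was 387 in young TCR, 375 in young TRM and 476 in aged TRM. Without Cdkn1a it was 223, 326 and 272 TPM. The young samples thus had like inhibitor totals with a different makeup, more INK4 and less Cdkn1a transcript in young TRM. The ratio of inhibitor TPM to the TPM of Ccnd2, Ccnd3, Cdk4 and Cdk6 was 0.462 and 0.501 in the columns of young TCR, 0.397 and 0.404 in young TRM, and 0.496 and 0.518 in aged TRM. These transcript sums say nothing of protein amounts, since p21, p27 and D cyclins are known to be controlled by protein turnover.

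**Figure D3:**
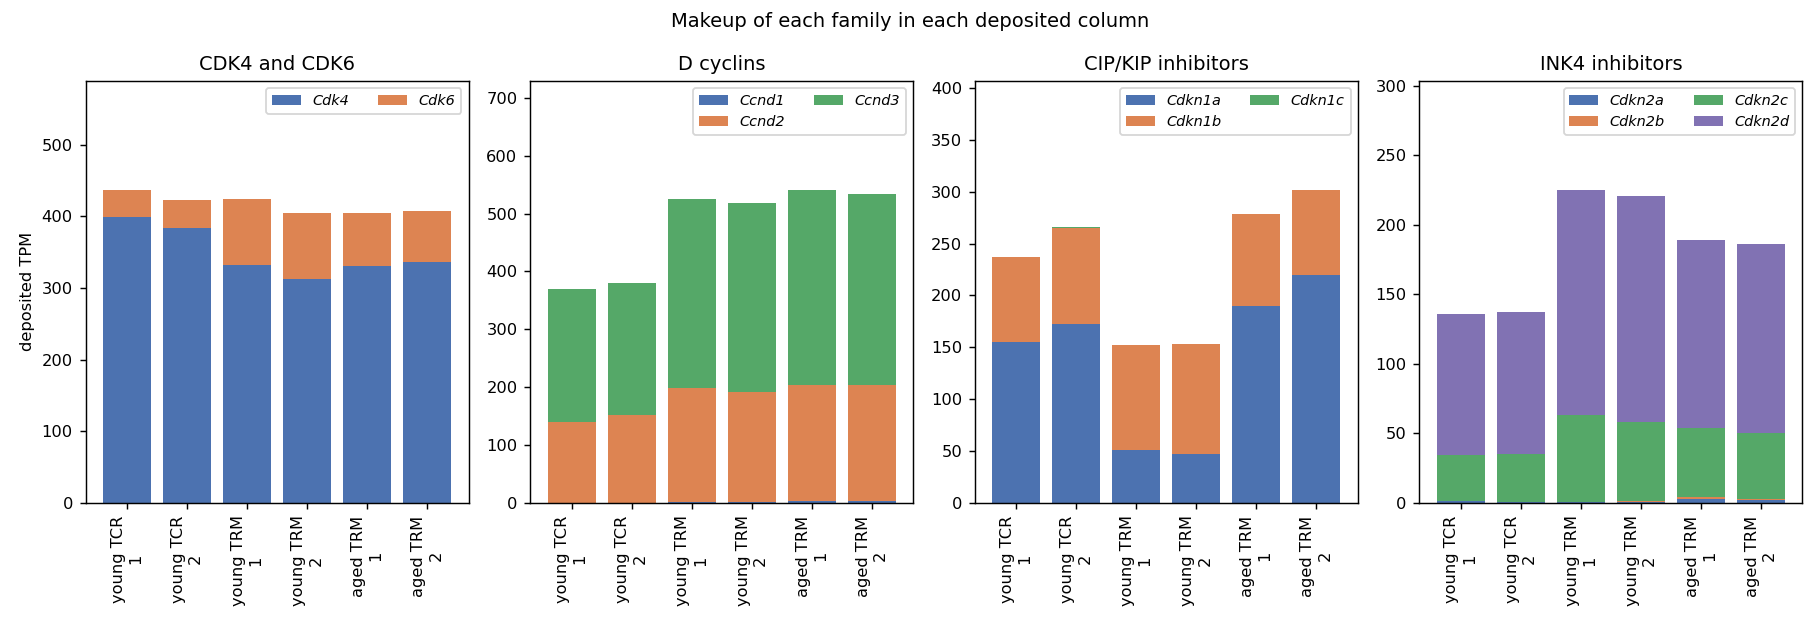
Deposited TPM of the kinases, the D cyclins, the CIP/KIP inhibitors and the INK4 inhibitors, stacked by gene, in columns 1 and 2 of each sample. The Cdk6 part widens from young TCR to young TRM, from 8.78% to 22.2% of the Cdk4 and Cdk6 sum, and the Cdkn1a part is smallest in young TRM, with 32.1% of the CIP/KIP sum.

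The other genes of the G1 machinery mostly passed no threshold. Beside this list and those below, 7.78% of all tested genes were called in the first comparison and 3.4% in the second (2.25% higher). Of 12 tested CDK inhibitor, cyclin and CDK-activating genes none was called in young TRM against young TCR, and 1 of 12 rose in aged TRM against young TRM. That gene was Ccnd1, the remaining D cyclin, with 0.715, 1.96 and 7.13 CPM in young TCR, young TRM and aged TRM (3.64-fold higher in aged TRM, 2.79 to 4.81). It was no longer called with a pseudocount of 5 CPM, was no longer tested with a filter of 10 CPM, and was called in the first comparison as well with a pseudocount of 0.25 CPM. It held at most 0.733% of the D cyclin TPM in any column. The remaining inhibitor genes Cdkn2b and Cdkn1c were under 1 CPM in every sample, Cdkn2b with 15, 12 and 33 reads and Cdkn1c with 19, 5 and 5. The cyclin E genes Ccne1 and Ccne2, which act with CDK2 after the D cyclins, had log2 ratios of -0.29 and 0.19 in the first comparison and 0.28 and 0.35 in the second.

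Retinoblastoma, E2F and DREAM complex genes had a median log2 ratio of 0.26 in young TRM against young TCR, with none of 20 called. The highest were Rbl1, which encodes the retinoblastoma relative p107 (111 and 198 CPM), and E2f7, a repressor of the E2F family (14.8 and 27.3 CPM). In aged TRM against young TRM none of the 20 was called, with a median of -0.10 and with E2f2 (167 and 121 CPM) and Rbl1 (198 and 148 CPM) lowest.

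Genes of DNA replication and mitosis, the transcripts that follow E2F release and division, lay near 0 in both comparisons. Of 32 replication genes none was called, with medians of -0.04 and 0.00 and log2 ratios that stayed between -0.30 and 0.28. Of 25 mitosis genes none was called either, with medians of 0.05 and -0.04. In the first comparison the extremes were Ccnb1, which encodes cyclin B1 (200 and 127 CPM, log2 ratio -0.65), and Top2a, which encodes a topoisomerase of dividing cells (1126 and 1704 CPM, 0.60). Mki67, the gene of the division marker Ki-67, had 873, 1048 and 890 CPM in young TCR, young TRM and aged TRM. The 4.06-fold difference in Cdkn1a between the TRM samples thus stood beside replication transcripts that differed by at most 0.26 in log2 ratio.

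In young TRM against young TCR 3.6% of all tested genes were lower and 4.18% higher. Of the p53 regulators and targets other than Cdkn1a and Trp53inp1, 2 of 26 tested fell in this comparison and none rose. They were Plk2, a stress-induced kinase gene (27.1 to 8.71 CPM), and Phlda3, which encodes an inhibitor of AKT (23.2 to 8.20 CPM). Sesn2, a sensor of amino acid and oxidative stress, had the highest value, 17.5 and 35.6 CPM (log2 ratio 0.99), and was called with a pseudocount of 0.25 CPM and with column 1 alone. Perp, a p53 target gene (13.9 and 6.75 CPM), was called lower as well with a pseudocount of 0.25 CPM, which made 3 that fell. In aged TRM against young TRM 1 of 27 rose, beside 2.25% of all tested genes. This was Eda2r, which encodes a receptor of the TNF family, from 4 to 68 reads (0.114 to 1.67 CPM). It was not called with a pseudocount of 5 CPM, a filter of 10 CPM or the authors' TPM. The list's medians were -0.11 and 0.13. Ccng1, a strongly expressed p53 target, had 371, 211 and 334 CPM in the 3 samples, Mdm2, which encodes the ligase that degrades p53, had 123, 111 and 118 CPM, and Trp53 itself had 183, 167 and 143 CPM. Fas, which encodes a death receptor, had 44.6, 65.7 and 40.9 CPM, the lowest log2 ratio of the list in the second comparison (-0.67). Among the genes named here, Plk2, Phlda3, Perp and Ccng1 were lower in young TRM than in young TCR, like Cdkn1a. Fas and Sesn2 were higher there, and Mdm2 and Trp53 differed little. Log2 ratios above 0 were found for 9 of the 26 tested genes of the list in that comparison, and for 6008 of all 11588.

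Among upstream transcription factors, 2 of 21 tested rose in young TRM against young TCR, beside 4.18% of all tested genes. In aged TRM against young TRM 1 of 21 fell, beside 1.15% of all tested genes (2 with column 2 alone, where Runx1 was added). Klf2, a factor of T cell quiescence known to restrain cell growth, had 35.0, 151 and 43.8 CPM in young TCR, young TRM and aged TRM, and passed the threshold in both comparisons. Mxd1, a MAX partner that opposes MYC, rose from 51.2 to 170 CPM and had 91.5 CPM in aged TRM. Foxo1, which is known to activate Cdkn1b, had 128, 212 and 197 CPM, and Myc had 257, 311 and 251 CPM. Smad3, which carries the TGF-beta signal, had 60.7, 32.4 and 16.9 CPM, and did not pass the threshold in either comparison. The genes for turnover of inhibitors and cyclins had no call among 16 in either comparison. There Skp2, whose product marks p27 for degradation, had 21.4, 18.6 and 18.6 CPM, and Rnf123, which encodes part of a further p27 ligase, had 78.1, 117 and 82.9 CPM.

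**Figure D4:**
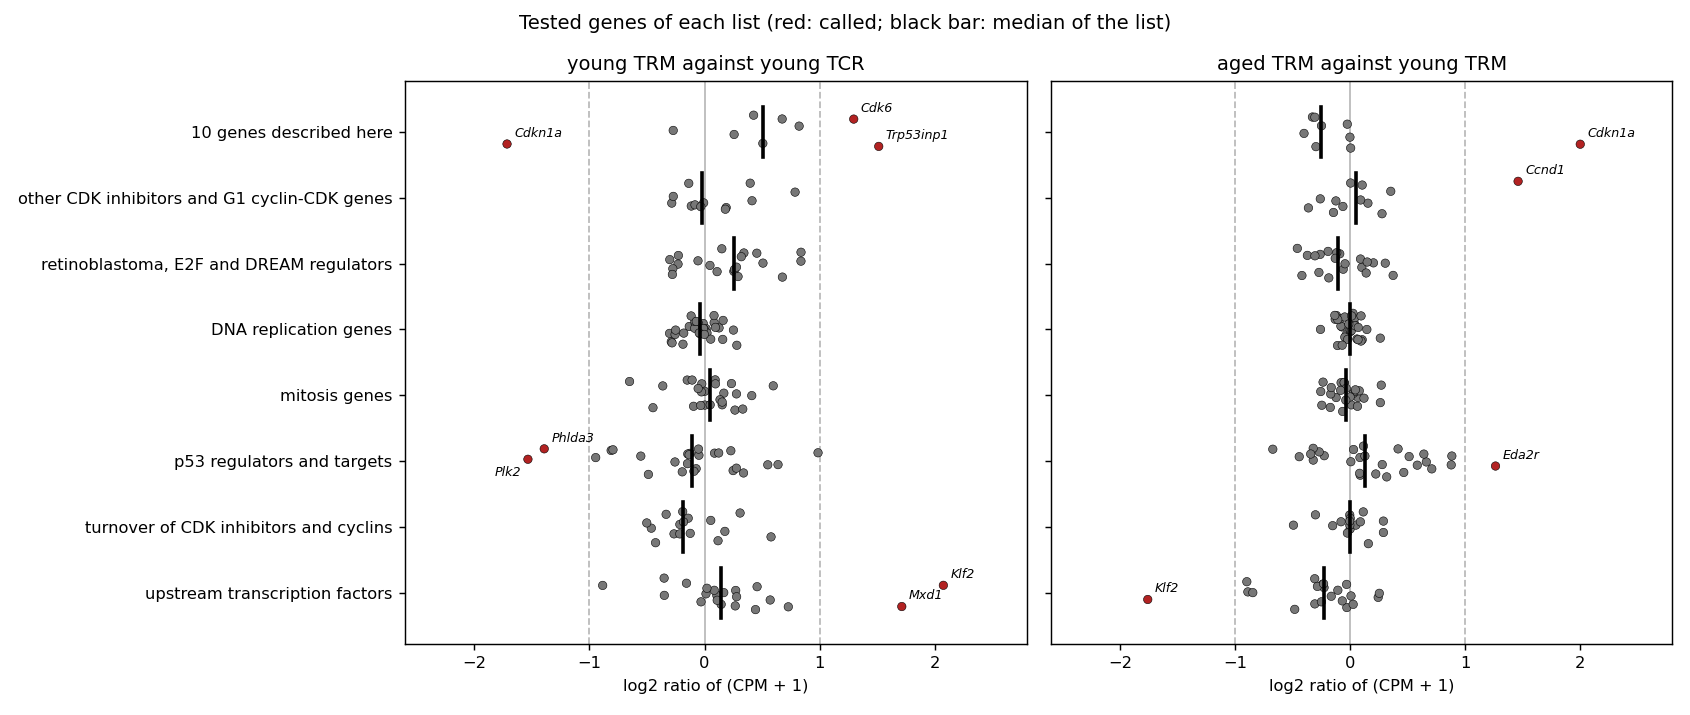
Log2 ratio of CPM with a pseudocount of 1 for each tested gene of the 8 lists, for young TRM over young TCR on the left and aged TRM over young TRM on the right. Black bars are list medians, dashed lines mark 2-fold and red points, which are named, passed the threshold. Replication and mitosis genes cluster near 0 in both panels, while Cdkn1a lies at -1.72 on the left and 2.0 on the right.

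Over the pair of log2 ratios from the 3 samples, the genes of at least 10 CPM throughout (8458 genes) closest to Cdkn1a were Lilrb4a, Abcb1a and Gzma, at distances of 0.34, 0.44 and 0.53. Gzma, the gene of granzyme A, had 423, 167 and 517 CPM. Closest to Cdk6 were LOC105244034, Bcl2 and Hivep2, at 0.02, 0.07 and 0.09, and Bcl2, a survival gene, had 308, 788 and 577 CPM. Closest to Trp53inp1 were Il18rap, Ctsw and Epb41l2, at 0.07, 0.09 and 0.10. With 3 samples, this likeness rests on 2 numbers for each gene.

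Some markers of other cells moved in the same samples as Cdkn1a. Of all tested genes, 4.18% rose and 3.6% fell in the first comparison, and 2.25% rose and 1.15% fell in the second. Red cell and platelet markers summed to 15.1, 6.87 and 15.9 CPM over 7 genes in young TCR, young TRM and aged TRM, with Hbb-bs at 0 in young TCR and Gp9 at 0 in young TRM. Of these, Ppbp and Pf4 fell and Hbb-bt rose in the first comparison, and Hbb-bt rose in the second. The 12 B and plasma cell markers, all above 0, summed to the values given above, and 7 of 9 tested fell in the first comparison and 3 of 8 rose in the second. The 9 NK and innate lymphoid markers summed to 676, 355 and 706 CPM, of which Gzma, a gene that CD8+ T cells express as well, had 423, 167 and 517 CPM. In the first comparison 5 of these 9 rose (Ncr1, Klrb1c, Kit, Fcer1g and Tyrobp) and 2 fell (Gzma and Eomes), in the second Gzma alone rose, and the NK receptor gene Ncr1 had 0.0493, 2.19 and 1.18 CPM. Myeloid markers summed to 67.4, 145 and 118 CPM, with Adgre1 at 0 in young TRM, and in the first comparison Ctss and Mpeg1 rose and Itgax fell. Most of the myeloid sum in the young samples was Ctss, with 40.5 CPM in young TCR and 102 CPM in young TRM. The 6 CD4 and regulatory T cell markers, all above 0, summed to 1016, 1486 and 1717 CPM, most of it Il2ra, with Cd4 itself at 10.5, 12.4 and 11.6 CPM. Foxp3, the defining factor of regulatory T cells, had 1.95, 33.6 and 3.71 CPM, so that it rose 17.2-fold (13.7 to 21.9) in young TRM, where Cdkn1a was low, and fell in aged TRM (log2 ratio -2.87). Ikzf2, which encodes Helios, rose in the first comparison (117, 315 and 168 CPM over the 3 samples), and Zbtb7b, which encodes a factor of the CD4 lineage, fell (18.1, 8.03 and 14.3 CPM). Stromal and endothelial markers summed to 80.9, 73.7 and 58.0 CPM, with Cdh5 at 0 in young TCR. Nearly all of this sum in the young samples was Pecam1, with 76.5 CPM in young TCR and 70.7 CPM in young TRM. These sums do not measure how many such cells were present, as single genes hold most of several of them. The part of such cells in the differences above was not tested.

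The sources used here do not say whether reads were counted by strand. Exons of Cdk4 share 641 bases with the opposite-strand gene Tspan31, and exons of Ccnd3 share 361 bases with Bysl, in GENCODE M21 for the same assembly. Tspan31 had 103, 73.7 and 99.9 CPM and Bysl 46.2, 37.0 and 45.4 CPM in young TCR, young TRM and aged TRM. Exons of Cdkn1a, Ccnd2 and Cdk6 share at most 372 bases with a non-coding gene on the other strand, and the other 5 genes share none.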

How the data were processed

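RNA of 3 samples, 1 per group, was sequenced from column-purified total RNA on a HiSeq instrument with standard Illumina libraries, per the labels' protocols. The submitters' processing notes name Bowtie and GRCm38 (mm10), and the sources used here give neither the counting program nor its annotation and strand setting. The authors deposited estimated counts, called read counts in the file header though not always whole, and TPM values, with 2 numbered columns per sample. A further 24 value columns were not used.

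Counts were rounded and the columns of a sample summed. TMM factors came from edgeR 4.0.16 in R 4.3.3 (1.02, 0.978 and 1.01 for young TCR, young TRM and aged TRM), and ratios and Clopper-Pearson intervals from Python 3.11.15 with scipy 1.17.1. Reads are not independent molecules, so intervals cover counting error only. With the columns read as runs, each group was 1 sample, and no test across mice or cultures was made. The calling rule was tried on simulated counts that hold counting error alone. They hold no variation between mice, cultures or libraries, so they cannot show how the rule fares against it. Promoters, positions and 23 symbols that had become dates were taken from RefSeq tables by gene ID (17071 of 17121 IDs matched).

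The genes, lists and rules were chosen with earlier results of these data known. Named were the 10 genes, extreme genes of each list (not all are printed), genes completing counts of 5 or fewer, and the 3 genes nearest each called gene by Euclidean distance between log2 ratios. Ccng1, Mdm2, Trp53, Mki67, Foxo1, Myc, Skp2, Ccne1, Ccne2, Tspan31, Bysl, Cd8a, Cd4, Ncr1, Il2ra and Perp were chosen after their values were seen. One further marker gene is not reported here. Alternatives were totals-only scaling, DESeq2 1.42.0 size factors, other pseudocounts and filters, the authors' TPM and single columns.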

Additional observations from a re-analysis of the deposited data

How the results depend on the processing

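The 4 calls among the 10 genes (Cdkn1a in both comparisons, Cdk6 and Trp53inp1 in the first) were kept in all 36 values under the 9 alternatives, and none of the 129 values of the uncalled genes passed the threshold. Dropping the filter or setting it to 10 CPM could not change these calls, since the called genes lay above 10 CPM in every sample. With the authors' TPM only the 2-fold part of the threshold was applied. The log2 ratio of Cdkn1a ranged from -1.82 to -1.63 in the first comparison and from 1.83 to 2.14 in the second, that of Cdk6 in the first from 1.24 to 1.30, and that of Trp53inp1 from 1.46 to 1.53. Cdkn2a was tested only without a filter (-0.11 and 0.71) and, in the second comparison, with column 1 alone (0.92). The background counts moved more. In young TRM against young TCR, 484 higher and 417 lower genes became 296 and 190 with a pseudocount of 5 CPM, and the lower genes became 234 with a filter of 10 CPM. In aged TRM against young TRM, 260 higher and 133 lower genes became 87 and 62 with a pseudocount of 5 CPM, and the higher genes became 426 with a pseudocount of 0.25 CPM and 123 with a filter of 10 CPM. A filter of 10 CPM tests fewer genes, and a larger pseudocount shrinks the ratios of weakly expressed ones. Scaling by totals shifted the median log2 ratio by -0.05 and 0.04. No paired analysis was possible because each group was read as 1 sample. With the columns read as runs of a sample, variation between mice and between cultures remains unmeasured.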
